A study of Homo sapiens with 2 samples.

Results

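Coagulation and plasminogen activation genes were compared between MKN45P, described as a highly metastatic gastric cancer cell line, and MKN45, the gastric cancer line it came from. The 9 genes were fixed by name: F3, F5, TFPI, TFPI2, F2R, F2RL1, PLAU, PLAUR and PLAT. They were read at every probeset (a small group of probes, placed by exon) that the platform annotation gave exactly 1 gene symbol, which left 144 probesets of 286871, and 9 symbols of 18923. Each line was grown in RPMI medium with 10% fetal bovine serum, taken up with trypsin and EDTA and hybridised as total RNA to 1 Affymetrix exon array, with no further treatment of either line. How MKN45P was selected from MKN45, and whether either line is a clone, is not given in the labels. Neither line has a second array, so the error between cultures is unknown, no test was possible and each difference below is between these 2 arrays. The spread given with a value is that between probesets of 1 gene.

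Blood clotting starts when tissue factor, a transmembrane protein encoded by F3, binds factor VII at a cell surface. The complex activates factor X, which with its cofactor factor V, the product of F5, turns prothrombin into thrombin, while TFPI inhibits these first steps and its relative TFPI2 inhibits plasmin and other proteases. Thrombin and other serine proteases signal to cells by cutting the protease-activated receptors, of which F2R encodes PAR1 and F2RL1 encodes PAR2, the receptor that trypsin cuts. In fibrinolysis, plasminogen is turned into plasmin by urokinase (PLAU), held at the cell surface by its receptor (PLAUR), or by tissue plasminogen activator (PLAT), and both routes have been studied in tumour invasion.

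Of the members, F3 and F5 were more than 2-fold lower in MKN45P and none was 2-fold higher. F3 differed by -2.10 in log2 units, 4.28-fold lower in MKN45P, and F5 by -1.87, or 3.66-fold lower. PLAUR followed at -0.74 and F2RL1 at -0.37, and the other genes lay between -0.15 and 0.02. MKN45 values were subtracted from MKN45P values probeset by probeset, and the gene's difference is the median of these. To be called measured, a gene needed 4 or more probesets and a level of 1.92 or more (the middle value of the whole table) in the average of both arrays. By that rule 7 of the 9 were measured, and TFPI and TFPI2 were not. All 7 measured genes had differences below 0, although PLAT took a positive one (0.01) when the lines' median levels were subtracted instead. The median over the 7 was -0.37, against 0.03 over all 13130 measured genes. The count of 2 of 7 stands beside 1.20% of all measured genes that were at least 2-fold lower in MKN45P (157 genes) and 4.58% that were at least 2-fold higher. These genes were proposed with this comparison known, so nothing is read from the count. In RNA from a whole culture, fewer cells that express a gene and less of its RNA per cell cannot be told apart.

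**Figure D1:**
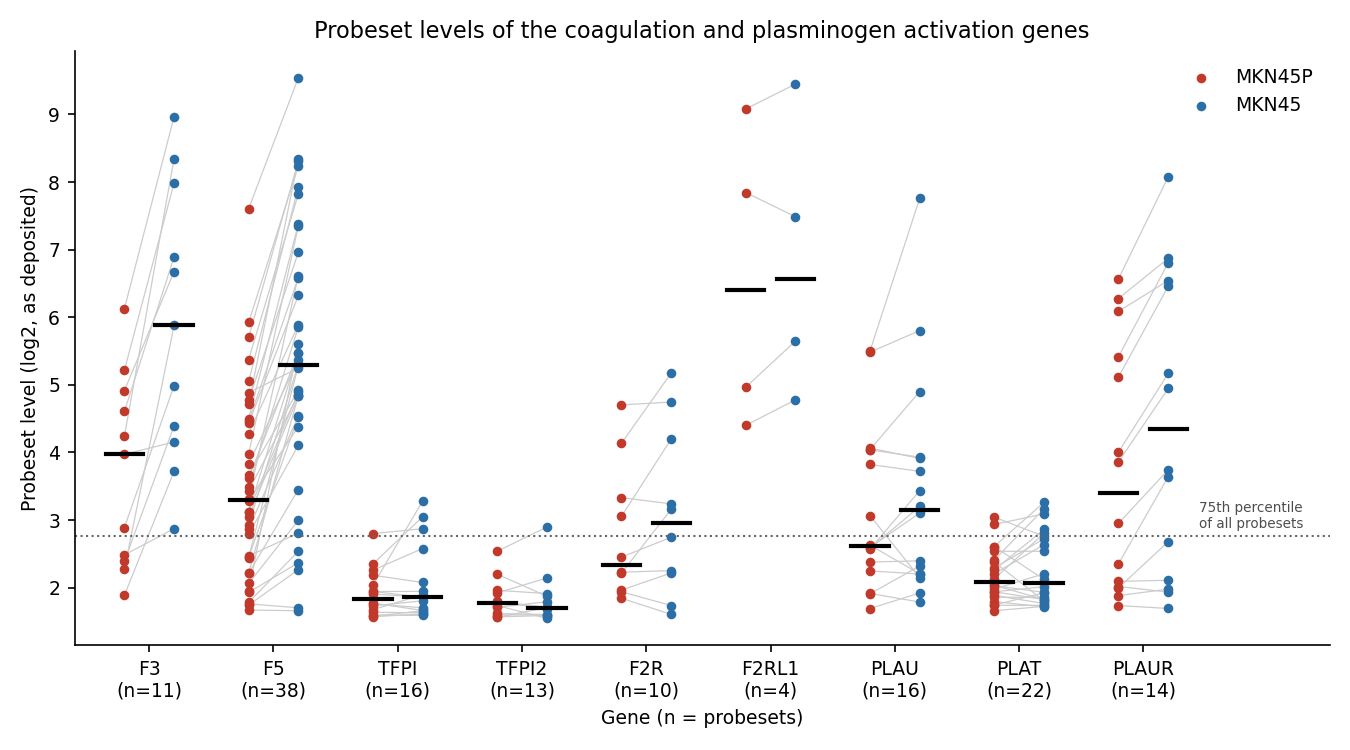
Deposited log2 level of every probeset of the 9 genes in MKN45P (red, left) and MKN45 (blue, right). Grey lines join the same probeset, black bars are gene medians and the dotted line is the 75th percentile of all probesets (2.77). The F3 and F5 probesets slope upward to MKN45, those of F2RL1 are at like heights in both lines, and most TFPI, TFPI2 and PLAT probesets lie under the dotted line.

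The DNA just before the transcription starts of F3, F5 and PLAUR is shown because these were the 3 members with the lowest differences. The sequences are from RefSeq on GRCh38.p14, the 250 bases before each start, 5′ to 3′ on the gene's own strand. Capitals mark matches, on either strand, to the AP-1 motif TGANTCA, the GC box GGGCGG, the TATA box TATAAA or the NF-kappaB consensus GGGRNNYYCC. In these motifs N is any base, R is A or G and Y is C or T.
F3 (chr1:94541760-94542009, minus strand): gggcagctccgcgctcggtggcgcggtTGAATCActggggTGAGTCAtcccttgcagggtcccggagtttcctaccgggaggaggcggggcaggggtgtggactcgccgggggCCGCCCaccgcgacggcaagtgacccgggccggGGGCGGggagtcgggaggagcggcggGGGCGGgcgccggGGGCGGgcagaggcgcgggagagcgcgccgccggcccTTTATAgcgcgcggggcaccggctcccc
F5 (chr1:169586482-169586731, minus strand): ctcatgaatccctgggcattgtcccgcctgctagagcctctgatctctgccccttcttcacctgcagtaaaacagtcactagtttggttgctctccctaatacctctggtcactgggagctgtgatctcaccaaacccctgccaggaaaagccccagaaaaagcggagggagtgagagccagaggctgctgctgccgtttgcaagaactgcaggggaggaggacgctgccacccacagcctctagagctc
PLAUR (chr19:43670170-43670419, minus strand): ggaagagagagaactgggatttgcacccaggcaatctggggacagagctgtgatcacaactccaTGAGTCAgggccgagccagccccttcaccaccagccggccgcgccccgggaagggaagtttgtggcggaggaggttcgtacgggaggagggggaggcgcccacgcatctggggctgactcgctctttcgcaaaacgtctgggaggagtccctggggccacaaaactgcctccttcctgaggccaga

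The 3 windows differed in their matches, although F3 and PLAUR both held the AP-1 motif. F3 held 2 AP-1 matches, beginning at -223 and -210 counted from the start with the base just before it as -1, 4 GC boxes and 1 TATA box at -28. PLAUR held 1 AP-1 match, at -186, and F5 held no match to any of the 4 motifs. The base composition differed as well, with 78% G and C in F3, 56.8% in F5 and 63.2% in PLAUR, against a median of 58% over 35116 promoters. Of those promoters, 6.57% held the AP-1 motif in the same window, 42.6% the GC box, 10.7% the TATA box and 9.96% the NF-kappaB consensus. No matches overlapped. Of the 7 members with a promoter read, TFPI2 also held an AP-1 match, 2 GC boxes and 1 NF-kappaB match, F2RL1 held 2 GC boxes, and TFPI and PLAU held none of the 4. A match is a description of these letters and not a binding site, and a site with other letters would not be matched.

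F3, the tissue factor gene on chromosome 1, was lower in MKN45P at each of its 11 probesets. Its median level was 3.97 in MKN45P and 5.88 in MKN45, and the differences had an interquartile range of -2.81 to -1.80. The brightest probeset, 2423916, read 6.12 in MKN45P and 8.97 in MKN45. The largest gap was at probeset 2423923, with 4.24 in MKN45P and 8.35 in MKN45, a difference of -4.11. At 9 of the 11 probesets the gap was 2-fold or more. The exceptions were 2423933, at 3.97 in MKN45P and 4.16 in MKN45, and 2423935, at 2.48 in MKN45P and 2.87 in MKN45. Probeset 2423933 therefore carried signal in both lines with a difference of only -0.18, while its neighbours in number, 2423929 and 2423934, differed by -1.84 and -1.76. In MKN45P 7 of the 11 probesets reached 2.77, the 75th percentile of all probesets, and in MKN45 all 11 did. F3 placed 21st from the bottom of 13130 measured genes.

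F5, which encodes the cofactor that speeds thrombin formation, was also read on chromosome 1 and had the most probesets of the members. Of its 38 probesets 36 were lower in MKN45P and 30 were at least 2-fold lower. The median level was 3.30 in MKN45P and 5.30 in MKN45, and the interquartile range of the differences was -2.43 to -1.24. Its brightest probeset, 2443393, read 7.61 in MKN45P and 9.54 in MKN45. The largest gaps were those of 2443398, with 1.95 in MKN45P and 5.60 in MKN45, and of 2443396, with 4.72 in MKN45P and 8.34 in MKN45. Of the 8 probesets under 2-fold, 7 had a mean level under 2.77. The remaining one, 2443414, read 4.89 in MKN45P and 5.25 in MKN45. Among the 31 probesets with a mean level at or above 2.77 all were lower in MKN45P, with differences from -3.65 to -0.36 and a median of -2.12. Of these, 5 reached 2.77 only through MKN45 and so are lower in MKN45P by the way they were chosen. Probeset 2443398, which gave the -3.65, is one of the 5. F5 placed 30th from the bottom of all measured genes.

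**Figure D2:**
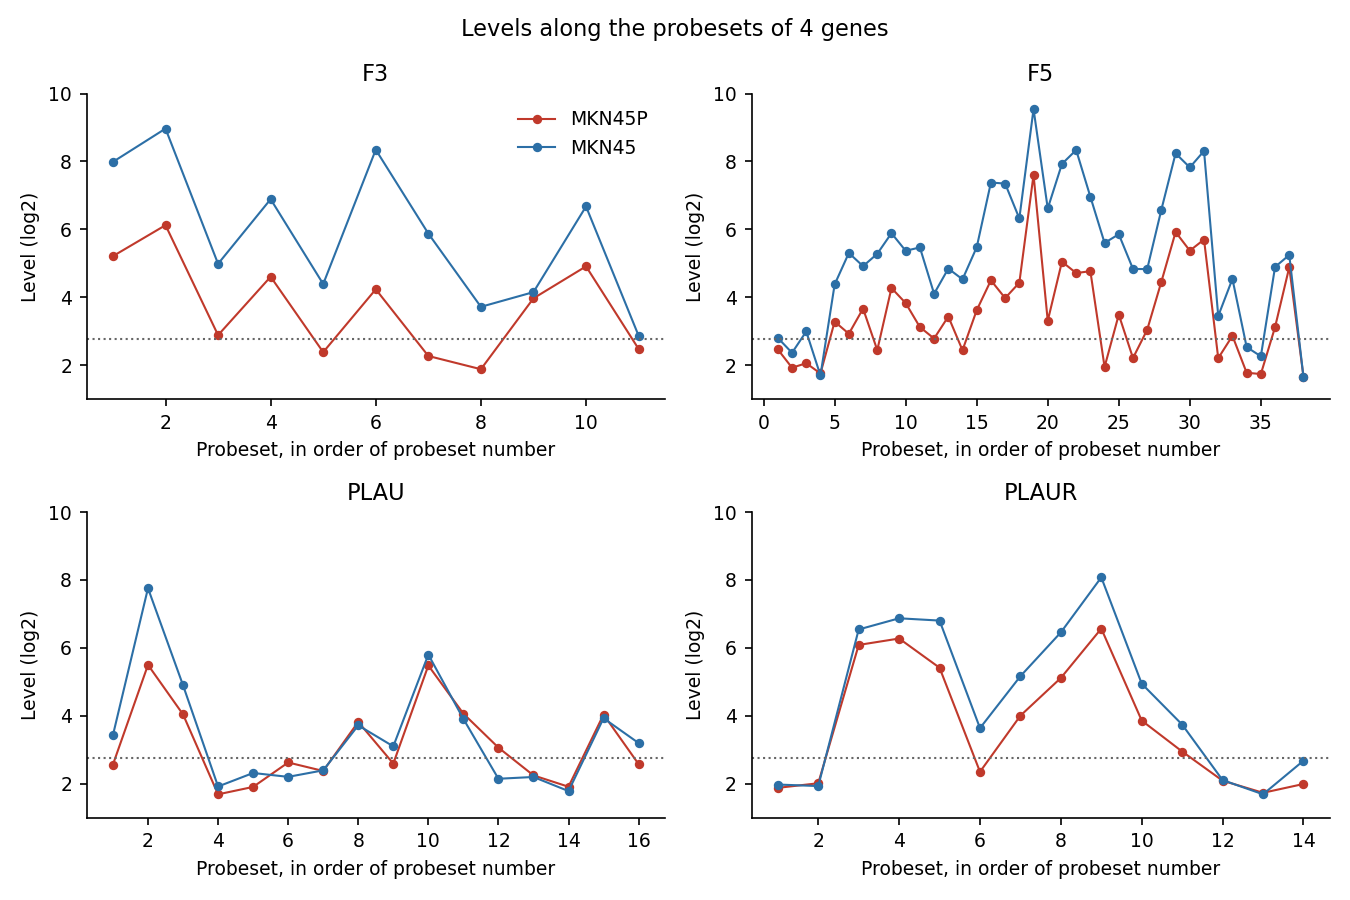
Log2 level in MKN45P (red) and MKN45 (blue) at each probeset of F3, F5, PLAU and PLAUR, in order of probeset number, with the 75th percentile of all probesets as a dotted line. The red line runs below the blue one along nearly all of F3 and F5. In PLAU the lines part at the first 3 probesets and in PLAUR across the middle of the gene.

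The inhibitor genes TFPI and TFPI2 gave almost no signal in either line. TFPI, on chromosome 2, had a median level of 1.84 in MKN45P and 1.86 in MKN45 over 16 probesets, with a difference of -0.02 (interquartile range -0.12 to 0.05). A single TFPI probeset, 2591446, was 2-fold apart, at 2.04 in MKN45P and 3.28 in MKN45. TFPI2, on chromosome 7, read 1.78 in MKN45P and 1.71 in MKN45, and none of its 13 probesets had a mean level at or above 2.77. The TFPI2 difference was 0.02 (-0.08 to 0.08). Both genes were under the level filter, with low median levels in both lines.

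The protease-activated receptors differed less than F3 and F5. F2RL1, encoding PAR2, had signal at all of its 4 probesets in both lines, and its median level was 6.41 in MKN45P and 6.57 in MKN45. The brightest, 2816498, read 9.08 in MKN45P and 9.45 in MKN45. F2RL1 was lower in MKN45P at 2816495 (-0.68), 2816496 (-0.38) and 2816498 (-0.37) but higher at 2816499 (0.36), so its gene difference of -0.37 is about as large as the disagreement between its probesets. F2R, encoding the thrombin receptor PAR1, had median levels of 2.34 in MKN45P and 2.95 in MKN45 and a difference of -0.15 (-0.78 to 0.06 over 10 probesets). The F2R probesets did not move together. Probeset 2816462 read 4.14 in MKN45P and 5.17 in MKN45, and 2816467 read 3.05 in MKN45P and 4.20 in MKN45, whereas 2816468 read 4.70 in MKN45P and 4.75 in MKN45. Both receptor genes lie on chromosome 5.

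PLAUR, the urokinase receptor gene on chromosome 19, had the lowest difference of the plasminogen activation genes. It was lower in MKN45P at 12 of 14 probesets, with median levels of 3.41 in MKN45P and 4.35 in MKN45 and a difference of -0.74 (-1.25 to -0.19). All 9 of its probesets at or above 2.77 were lower in MKN45P and 6 were at least 2-fold lower, with a median of -1.16. The brightest, 3864566, read 6.57 in MKN45P and 8.08 in MKN45, while 3864558 read 6.09 in MKN45P and 6.54 in MKN45. The 5 probesets of low level differed by -0.68 to 0.08. PLAUR was therefore under 2-fold over all probesets and past it over those with signal, of which 1 reached 2.77 only through MKN45. PLAUR placed 320th from the bottom of all measured genes.

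PLAU, encoding urokinase, differed by -0.12 over 16 probesets (-0.54 to 0.11), with median levels of 2.61 in MKN45P and 3.15 in MKN45. Over the 9 PLAU probesets with a mean level at or above 2.77 the median was -0.51, and 6 were lower in MKN45P. Of the 9, 3 reached 2.77 only through MKN45. Its probesets differed among themselves. The 3 lowest in number were lower in MKN45P. Probeset 3252042 read 5.50 in MKN45P and 7.76 in MKN45, 3252043 read 4.04 in MKN45P and 4.90 in MKN45, and 3252040 read 2.57 in MKN45P and 3.43 in MKN45. Further along, 3252054 read 5.48 in MKN45P and 5.80 in MKN45, 3252053 and 3252064 differed by -0.51 and -0.62, and 3252056 and 3252063 by 0.15 and 0.11. Probeset 3252058 went furthest the other way, at 3.07 in MKN45P and 2.15 in MKN45 (0.92), and 3252049 differed by 0.42. Probeset 3252042 lay 2.13 below the difference of its gene, one of only 2 member probesets at or above 2.77 that stood 2 or more away from their gene. The other was F3 probeset 2423923, at -2.01. In RefSeq the PLAU locus overlaps the noncoding gene C10orf55, whose own 6 probesets were at the low end in both lines, at 1.87 in MKN45P and 1.82 in MKN45.

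PLAT, the gene of tissue plasminogen activator on chromosome 8, was at the low end in both lines. Its median level over 22 probesets was 2.08 in MKN45P and 2.07 in MKN45, and its difference was -0.03 (-0.38 to 0.11). Of its probesets 12 were lower and 10 higher in MKN45P, and none was 2-fold apart. The brightest, 3133245, read 2.94 in MKN45P and 3.09 in MKN45. Of the 4 PLAT probesets with a mean level at or above 2.77, 2 reached it only through MKN45.

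**Figure D3:**
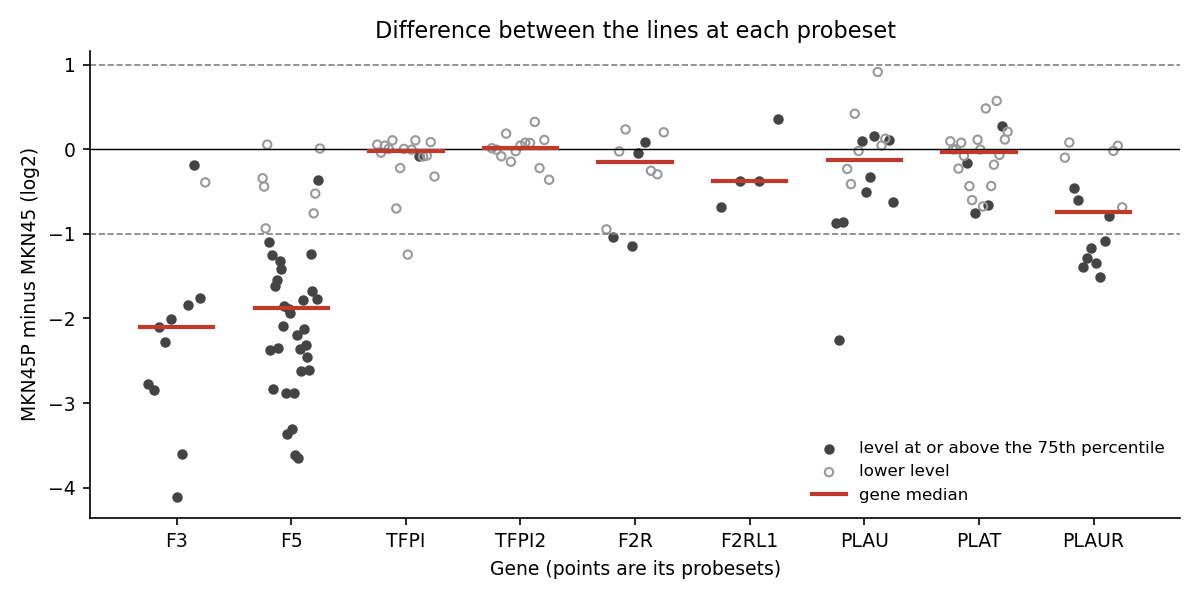
Difference between MKN45P and MKN45 (log2) at each probeset of the 9 genes, with filled points where the mean level was 2.77 or more, open points where it was lower and red bars for gene medians. Dashed lines mark 2-fold. Nearly all filled points of F3 and F5 lie under the lower dashed line, those of PLAUR straddle it, and a lone PLAU point lies at -2.26.

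Across the members, 72 of the 144 probesets had a mean level at or above 2.77. Of these 48 were at least 2-fold lower in MKN45P and none was 2-fold higher, where 7.93% of all 139760 annotated probesets of that level were 2-fold lower and 17.0% were 2-fold higher. The mean of both arrays set that level, and 14 of the 72, among them 9 of the 48, were under 2.77 in MKN45P and reached it only through MKN45. Such probesets are lower in MKN45P by the way they were chosen, and the 9 were 5 in F5, 3 in F3 and 1 in PLAUR. F3 and F5 supplied 39 of the 48. Among the 31 probesets with signal of the other members, 9 were 2-fold lower, 6 in PLAUR, 2 in F2R and 1 in PLAU. Probesets of 1 gene are not independent of each other.

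**Figure D4:**
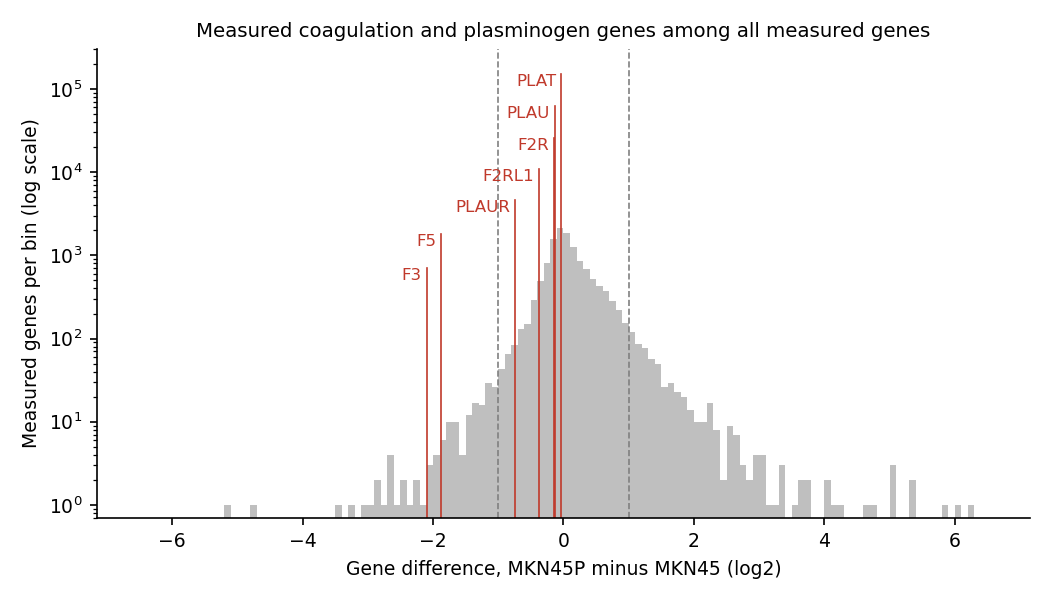
Number of measured genes (log scale, bins of 0.1) by their difference between MKN45P and MKN45 in log2 units. Red lines of staggered height mark the 7 measured members and dashed lines mark 2-fold. F3 and F5 lie in the lower tail and the other 5 lie inside 2-fold.

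The wider system was described through 66 genes in 6 roles, the members included, of which 65 had probesets under their symbol and 42 were measured. Among the 42, F3, F5 and ARRB1 were at least 2-fold lower in MKN45P and VLDLR was at least 2-fold higher, with a median of -0.03. Without the members it was 1 lower and 1 higher of 35, with a median of 0.02. Over all measured genes 1.20% were at least 2-fold lower and 4.58% at least 2-fold higher, and nothing is read from the list's counts.

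Among 9 measured procoagulant genes, F3 and F5 were the only ones past 2-fold. F7, whose product is the partner of tissue factor, had a higher level in MKN45P (4.24) than in MKN45 (2.83), and was higher at 14 of 15 probesets. Its difference by the median of probesets was 0.62, with a wide interquartile range of 0.12 to 1.76. GGCX, the carboxylase that vitamin K-dependent clotting factors need, read 5.35 in MKN45P and 4.31 in MKN45. GGCX differed by 0.79 (interquartile range 0.52 to 1.22) and was higher in MKN45P at 17 of 21 probesets. The prothrombin gene F2 (-0.12) and F10 (0.15) were near the low end in both lines, and the 3 fibrinogen chain genes FGA, FGB and FGG were under the level filter. No coagulation inhibitor of 6 measured passed 2-fold. THBD, encoding thrombomodulin, differed by 0.39, the protein C gene PROC by -0.22, ANXA5, encoding a phospholipid-binding annexin, by 0.10 and PROCR, the protein C receptor gene, by 0.09.

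The receptors' signalling partners included 1 gene past 2-fold. ARRB1, encoding beta-arrestin 1, which binds activated receptors of this type, was lower in MKN45P at all 19 probesets. Its median level was 4.22 in MKN45P and 6.43 in MKN45, and its difference was -1.51 (-1.91 to -0.93). ARRB2, encoding beta-arrestin 2, differed by 0.12, with levels of 7.57 in MKN45P and 7.22 in MKN45. PLCB3, a phospholipase C that G proteins activate, differed by -0.83, the guanine nucleotide exchange factor gene ARHGEF1 by -0.54 and the G protein gene GNA11 by -0.17. F2RL3, encoding PAR4, differed by -0.30, and F2RL2, encoding PAR3, was under the level filter.

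On the plasminogen side no measured gene passed 2-fold over all its probesets among plasminogen, its activators and their inhibitors. Besides the members, SERPINE2, an inhibitor of thrombin and urokinase, differed by 0.32 with a wide interquartile range (-0.03 to 1.04). Over only its probesets with a mean level at or above 2.77, SERPINE2 was at least 2-fold higher in MKN45P. PLG and SERPINB2 were under the level filter. Among 9 measured surface partners and clearance receptors VLDLR, a lipoprotein receptor that also takes up urokinase bound to its inhibitor, was higher by 1.40 and read 3.92 in MKN45P and 2.82 in MKN45. IGF2R, the mannose 6-phosphate receptor gene, differed by 0.995 and read 5.96 in MKN45P and 4.60 in MKN45. S100A10 and ANXA2, whose products together bind plasminogen and PLAT protein at the cell surface, differed by -0.32 and -0.31. ANXA2 and ENO1 have close copies in the genome that the same probes may bind, so their values are uncertain.

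**Figure D5:**
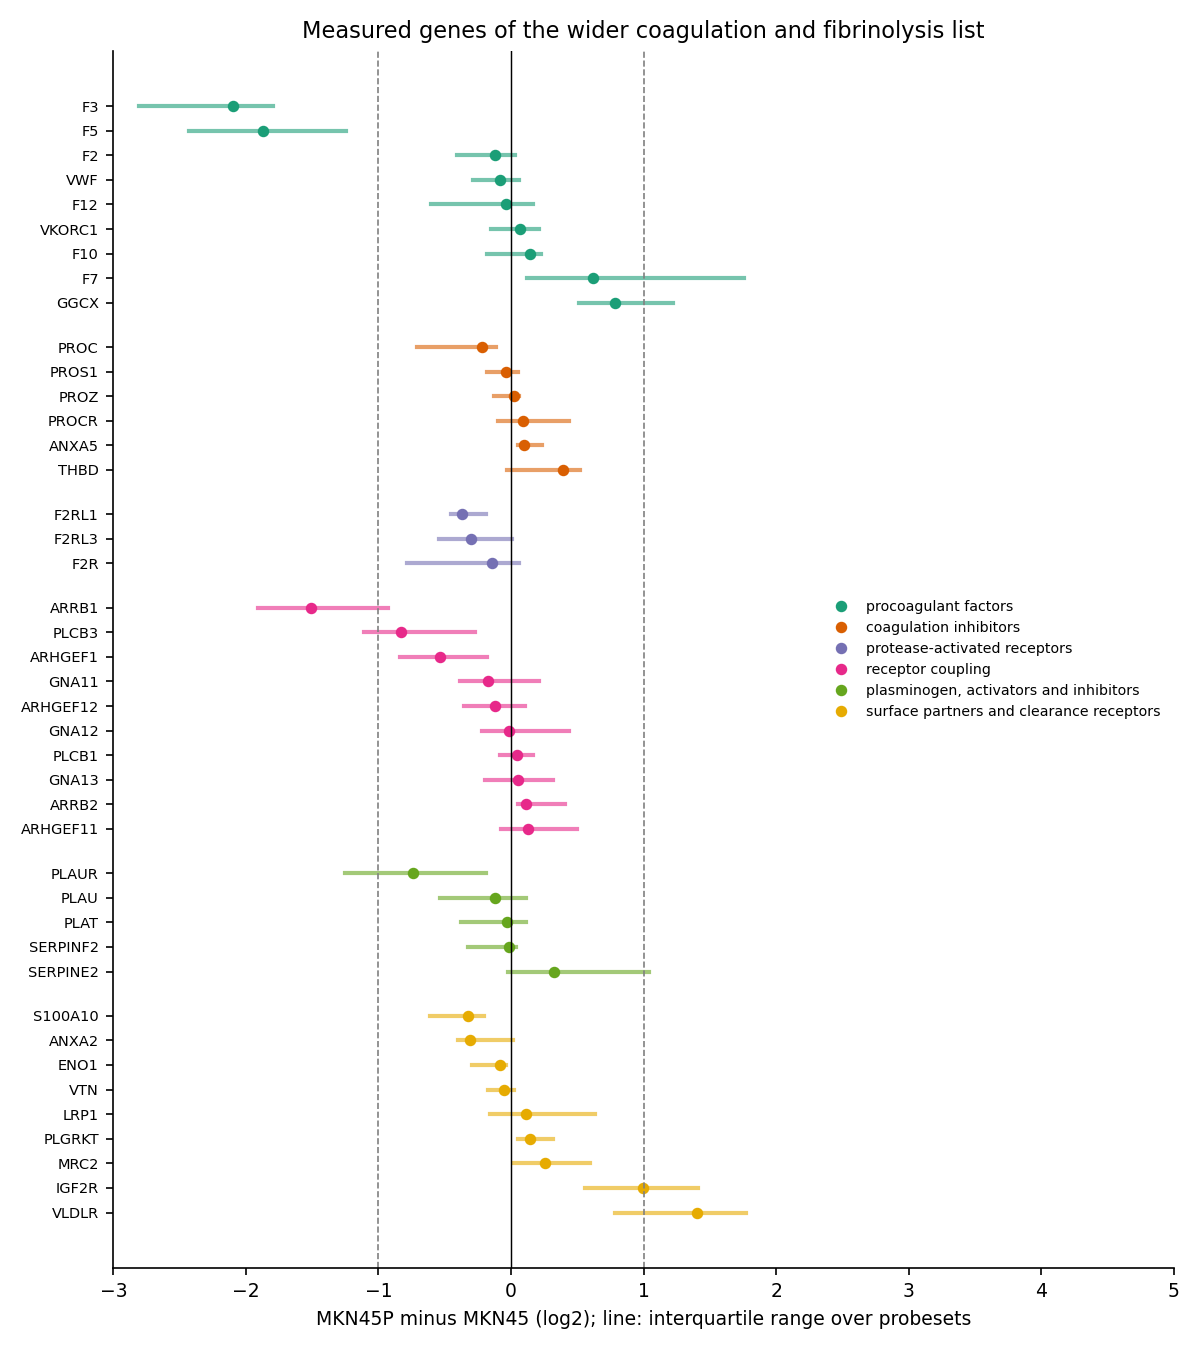
Difference between MKN45P and MKN45 (log2) of the 42 measured genes of the wider list, grouped and coloured by role, with points for gene medians and lines for the interquartile range over probesets. F3, F5 and ARRB1 lie left of the lower 2-fold line and VLDLR lies right of the upper one.

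Genes next to the members on the chromosome mostly stayed within 2-fold. The 2 nearest measured genes on each side of each member, in RefSeq order, gave 32 genes other than the members. Of these 1 was 2-fold lower and 1 was 2-fold higher in MKN45P, with a median of 0.01. Most measured genes stayed within 2-fold as well, with 1.20% lower and 4.58% higher, so this is not particular to the neighbours. The lower neighbour was IQGAP2, a scaffold protein gene next to F2R on the side away from F2RL1. IQGAP2 read 3.99 in MKN45P and 5.78 in MKN45 (-1.78, -2.07 to -1.25 over 43 probesets). The higher one was POC5 (1.09), the next measured gene beyond it. Beside F3, ABCD3 differed by -0.18 and SLC44A3 by -0.87, and beside F5, SLC19A2 differed by -0.31 and FIRRM by 0.16.

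Epithelial markers were present in both lines and markers of other cell types that make clotting genes were low. Of 10 gastric epithelial markers 9 had a median level at or above 2.77 in MKN45P and 9 in MKN45, CDH1 reading 10.74 in MKN45P and 10.26 in MKN45, whereas the stomach surface marker GKN1 was at the low end in both. CLDN7 was 2-fold higher in MKN45P, at 9.93 in MKN45P and 8.83 in MKN45 (1.14), EPCAM differed by 0.83, KRT19, with 2 probesets, by -0.76 and TFF1 by -0.50. The part of these markers in the members' differences was not tested. Of 8 endothelial markers 2 reached that level in each line, CLDN5 and EGFL7. For 6 fibroblast markers the counts were 1 in MKN45P and 0 in MKN45, and for 5 platelet markers 0 in MKN45P and 1 in MKN45. None of the 5 monocyte and macrophage markers with probesets, or of 5 hepatocyte markers, reached it in either line. None of the measured markers of these other cell types was 2-fold apart between the lines. Over all probesets the median was 1.91 in MKN45P and 1.93 in MKN45, and the 75th percentile 2.73 in MKN45P and 2.80 in MKN45.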

How the data were processed

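Total RNA of 1 lysate each of MKN45P and MKN45 was read on 1 exon array per line, giving 877986 probesets, of which 286871 had 1 symbol. Per the range of the deposited values they are log2 levels (1.42 to 13.45 in MKN45P and 1.42 to 13.48 in MKN45). Per the submitters' processing notes, Partek and hg18 were used. How background was corrected, probes summarised and arrays normalized is not stated in these sources. The number of arrays limits the precision.

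Symbols came from the platform annotation, with older ones updated through RefSeq GRCh38.p14, which also gave gene order and promoters. No hg18 position was used. Gene differences were medians over probesets, described by size with no test. The step was run on simulated data whose gene shifts were larger than 2-fold and whose probeset deviations were shuffled between genes. That run does not show how the step performs near 2-fold or with probesets that depend on each other. Named were all members, genes of each role past 2-fold and up to 4 with the largest differences, neighbours past 2-fold, and member probesets 2 or more from their gene. Values of other list genes and neighbours were added after they were seen. Genes of like pattern were not sought, since 2 arrays cannot rank them. Members and lists were chosen with earlier results of these data known. Alternatives were 2 other gene summaries, 2 level filters, 2 probeset minimums, 3 scalings and probesets with signal only. Python 3.11.15, numpy 2.4.6, pandas 2.3.3, statsmodels 0.14.6 and matplotlib 3.10.9 were used.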

Additional observations from a re-analysis of the deposited data

How the results depend on the processing

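F3 and F5 were the members at least 2-fold lower in MKN45P under the main and each of 10 other settings, and none was 2-fold higher. Over those that change a gene's value, F3 ranged from -2.19 to -1.91, F5 from -2.12 to -1.83, PLAUR from -1.16 to -0.67, F2RL1 from -0.45 to -0.16, F2R from -0.61 to -0.09 and PLAU from -0.54 to -0.06. With only probesets of a mean level of 2.77 or more, PLAUR joined them, making 3 of 7 members lower. Of all genes measured under that setting 2.94% were at least 2-fold lower (313 of 10645), against 1.20% by the main one. That level was reached only through MKN45 by 14 of the 72 member probesets, 1 of them in PLAUR. PLAT (-0.40 to 0.01) and TFPI (-0.15 to 0.003) changed sign. In the wider list the genes at least 2-fold higher, 1 by the main setting, became 3 with the mean of the differences (F7, VLDLR and IGF2R) and 4 with the difference between median levels, which added GGCX. They were 2 with each array centred on its median (VLDLR and IGF2R) and 3 with only probesets with signal (SERPINE2, VLDLR and IGF2R). Over all 13130 measured genes, 602 were 2-fold higher by the main setting and 645 with the mean of the differences. With the difference between median levels 1263 were, with centring 626, and with only probesets with signal 1218 of 10645. No change particular to the list is read from its counts. In the wider list the number 2-fold lower stayed at 3 or, with probesets with signal, 4. The cause was not tested. No paired analysis was possible because each line had 1 array, and no replicate could be left out. Low signal limits what can be said of TFPI, TFPI2 and PLAT.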
